A study of Mus musculus with 12 samples.

Results

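miR-378 and miR-378* are the 2 mature microRNAs cut from opposite arms of 1 hairpin precursor, and they were followed through 2 days of light and dark in mouse liver. They were chosen by name, as the entries mmu-miR-378 and mmu-miR-378* of an array that carried 650 entries in all, 611 of them mouse miRNAs and 39 of them other, herpesvirus entries. All 12 collection times were used. Each arm was measured by 2 probes with 10 spots each, so by 20 spots on each array.

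MicroRNAs are short RNAs that guide Argonaute proteins to messenger RNAs with matching sites, most often through the bases of the seed near their 5′ end, and lower the output of those messengers. The hairpin of miR-378 lies within Ppargc1b, the gene of PGC-1β, a transcriptional coactivator of mitochondrial and lipid genes. Mice that lack both arms have been described as resistant to obesity on a high-fat diet, with Crat, a carnitine acetyltransferase, and Med13, a Mediator subunit, among the targets given for the arms. In human breast cancer cells miR-378* has been described as acting on the oestrogen-related receptor pathway. In the RefSeq annotation of GRCm38.p6 the gene Mir378a lies inside the bounds of Ppargc1b. The same annotation's miRNA table lists miR-378b, miR-378c and miR-378d at other loci. None of these 3 relatives has an entry on the array, and whether their RNA adds signal to the probes of miR-378 was not tested.

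The study asked how miRNAs take part in the daily rhythm of the liver. Adult mice were kept on a daily cycle of 12 h light and 12 h dark and ate and drank freely, and their strain, sex and genotype are not given in the sources used here. Zeitgeber time (ZT) counts hours from a lights-on, and collections ran from ZT18 to ZT62 in steps of 4 h. At each time the RNA of 2 livers was mixed in equal amounts and hybridised to 1 array, so the groups below were made of 12 pools: 6 collected in the dark and 6 in the light, or 2 at each of 6 clock times (2, 6, 10, 14, 18 and 22 h after lights on). All groups shared this housing, and the labels name nothing but the time of collection that sets them apart. Cycle 2 stands for the later array at a clock time and cycle 1 for the earlier. The repeats of a clock time are separate pools from successive days, and single mice were not measured, so p-values rest on differences between pools and arrays, part of which may be technical.

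Each array held between 132 and 162 detected entries, and the tests ran on the 139 entries with a detection call on 6 arrays or more. Between 16.5% and 19.6% of the spots of an array were well above background. The 12 arrays correlated with each other at r of 0.987 or more over the tested entries. They stood on 2 slides, with ZT50 to ZT62 on slide 2 (4 arrays) and ZT18 to ZT46 on slide 1 (8 arrays), so slide is partly confounded with cycle. The liver label fitted its markers: miR-122, the defining miRNA of hepatocytes, lay between 29458 and 33127 intensity units, and miR-192 between 3195 and 3739, on all 12 arrays. None of the 7 listed miRNAs of striated muscle, a tissue rich in miR-378, was detected on any array (0 of 7). Of the 4 listed for brown fat, 2 were detected on an array: miR-365, between 185.7 and 211.3 units, and miR-455, between 22.2 and 34.3 units.

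miR-378 was present in every liver pool and varied little. Its entry was detected on all 12 arrays, and all 113 used spots of its brighter probe and all 117 of its dimmer one were well above background. Signals are given in intensity units after scaling between arrays, in which every array was divided by the 75th percentile of its commonly detected probes. The brighter probe stands for the arm unless the other is named.

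On the first day miR-378 gave 132.4 units at ZT18, 130.9 at ZT22, 130.1 at ZT26, 113.4 at ZT30, 144.7 at ZT34 and 111.5 at ZT38. On the second day it gave 119.8 units at ZT42, 118.8 at ZT46, 144.3 at ZT50, 126.4 at ZT54, 126.7 at ZT58 and 123.9 at ZT62. ZT34 and ZT50 were the highest arrays, both from the light, and ZT38 and ZT30 were the lowest, 1 from the dark and 1 from the light. The mean over the 12 arrays was 126.9 ± 10.5 units (SD, n = 12), a coefficient of variation of 8.30%, and the highest array lay 1.30-fold above the lowest. The standard error over the spots of an array had a median of 2.16% of the signal and ran from 1.32% to 4.06%, which covers the spots of 1 array only and not labelling or hybridisation. In bulk liver RNA, fewer cells that hold an miRNA and less of it per cell cannot be told apart.

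The dimmer probe of miR-378 largely shared these high and low arrays. It gave 76.5 units at ZT18, 76.5 at ZT22, 77.2 at ZT26, 66.3 at ZT30, 86.9 at ZT34, 68.6 at ZT38, 73.7 at ZT42, 72.1 at ZT46, 78.2 at ZT50, 75.4 at ZT54, 76.5 at ZT58 and 68.4 at ZT62. ZT34 was again the highest array and ZT30 and ZT38 were again low, while ZT50, near the top by the brighter probe, was closer to the others here, and ZT62, in the middle by the brighter probe, was the second lowest. The probes' correlation over the 12 arrays was r = 0.873, and 0.965 over the 8 arrays of slide 1 (slide 2, with 4 arrays, is too small for one), given as a description since both probes share each array's labelling and scaling.

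**Figure D1:**
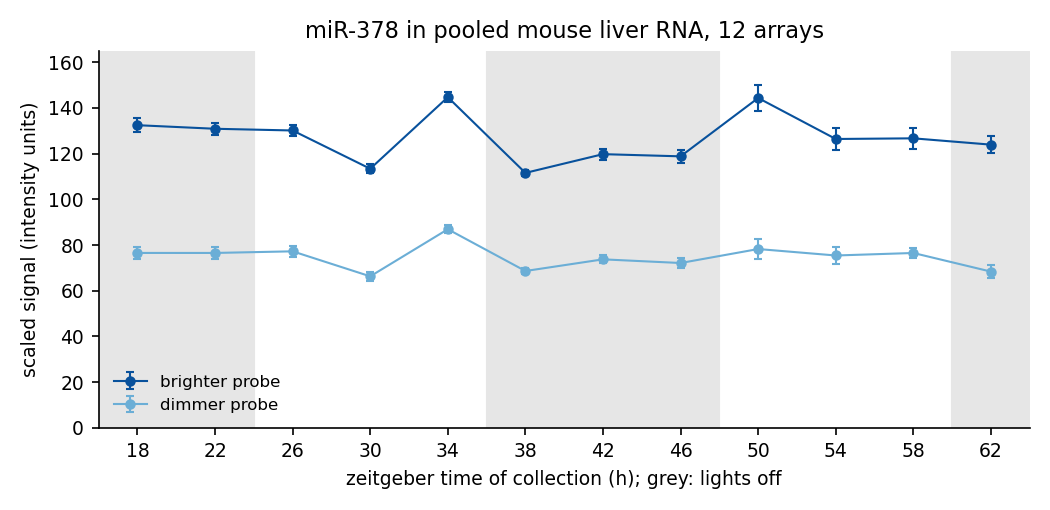
Scaled signal of miR-378 in intensity units on each array against zeitgeber time in hours, for the brighter and the dimmer probe, with bars for the standard error over spots. By the brighter probe the arrays lie between 111.5 and 144.7 units, and the peaks at ZT34 and ZT50 are not 24 h apart.

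The level of miR-378 did not differ between dark and light beyond the spread of the pools. In the 6 dark pools it ran from 111.5 to 132.4 units with a mean of 122.9 ± 7.88 (SD, n = 6), and in the 6 light pools from 113.4 to 144.7 units with a mean of 130.9 ± 12.0 (SD, n = 6). The groups overlapped. On the log2 scale the means were 6.94 ± 0.09 in the dark and 7.03 ± 0.13 in the light, a difference (dark minus light) of -0.09 with a 95% interval of -0.23 to 0.05, and 4 of the 6 dark pools lay below the light mean on that scale. As a fold, dark over light was 0.940, with an interval of 0.852 to 1.04.

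That difference did not pass limma's test across all 139 tested entries (adjusted p = 0.740, Benjamini-Hochberg). The exact permutation test over all 924 splits of the arrays gave a 2-sided p of 0.206, where the smallest p it can give is 0.00216. No tested entry passed the same limma test (0 of 139, 0%), and 11 had an unadjusted p under 0.05 (7.91%). With slide as a block the difference in miR-378 was -0.08 (limma, adjusted p = 0.875), within slide 2 alone, which holds 1 dark array, it was -0.09, and within slide 1 alone -0.07.

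The difference between dark and light was not shown to depend on the day. In cycle 2 the dark pools gave 119.8, 118.8 and 123.9 units and the light pools gave 144.3, 126.4 and 126.7 units, so every dark pool lay below every light pool. Of the 139 tested entries, 15 (10.8%) had all 3 dark arrays of cycle 2 below all 3 light arrays. In that cycle all light arrays and 1 dark array stood on slide 2, so part of this separation cannot be told apart from the slide. In cycle 1 the dark pools gave 132.4, 130.9 and 111.5 units and the light pools gave 130.1, 113.4 and 144.7 units, and the groups overlapped. In that cycle 8 of the 139 entries (5.76%) had all dark arrays below all light arrays. The log2 difference was -0.13 in cycle 2 and -0.05 in cycle 1, and the test of the change between cycles gave -0.08 (limma, adjusted p = 0.951). No entry passed that test (0 of 139, 0%), and 3 had an unadjusted p under 0.05 (2.16%).

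A rhythm of 24 h was not detected in miR-378. The fitted cosine had a peak 3.17 h after lights on and a peak-to-trough fold of 1.06, and the upper 95% limit of that fold was 1.30. Neither limma's F test (adjusted p = 0.993) nor a permutation of the 12 time labels (100000 draws, p = 0.694) passed the threshold of 0.05. Across the array 0 of 139 entries passed (0%), and 5 had an unadjusted p under 0.05 (3.6%). The median upper limit over the 109 entries that never fell to the detection floor was 1.25, and 45 of them had a larger limit than miR-378.

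Over the 6 clock times the means of miR-378 kept an order whose neighbours could not be separated. The log2 mean was 7.10 ± 0.11 at 2 h, 6.90 ± 0.11 at 6 h, 7.08 ± 0.14 at 10 h, 6.88 ± 0.11 at 14 h, 6.98 ± 0.10 at 18 h and 6.96 ± 0.10 at 22 h after lights on (SD, n = 2 each). The highest were thus 2 h and 10 h, both in the light, and the lowest 14 h and 6 h, from dark and light. Put in order from the highest, the neighbours 2 h and 10 h differed by 0.02, 10 h and 18 h by 0.10, 18 h and 22 h by 0.01, 22 h and 6 h by 0.06, and 6 h and 14 h by 0.03. The 95% interval of each of these 5 differences included 0, that of the widest gap (10 h minus 18 h) running from -0.15 to 0.36. Even the extremes, 2 h minus 14 h, differed by 0.22 with an interval of -0.03 to 0.47, a span of 1.17-fold. limma's F test over clock times gave an adjusted p of 0.805. No entry passed it (0 of 139, 0%), and 6 had an unadjusted p under 0.05 (4.32%).

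**Figure D2:**
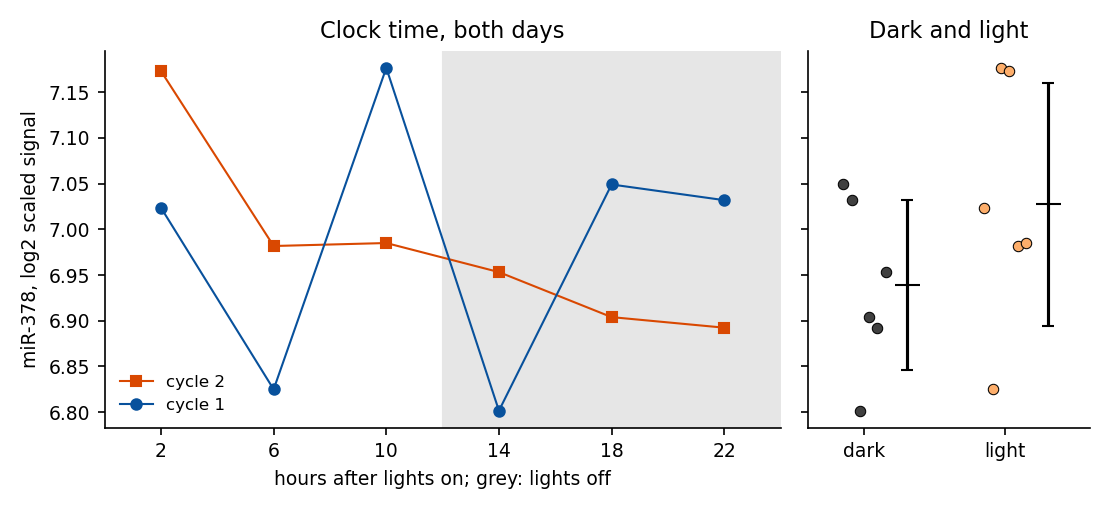
log2 scaled signal of miR-378, on the left by clock time in hours after lights on, with a point for each array of cycle 2 and cycle 1, and on the right in the 6 dark and the 6 light pools with the mean and SD. The dark pools average 6.94 and the light pools 7.03, and their points overlap.

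No recurrence of the first day's profile on the second was detected for miR-378. Cycle 2 was above cycle 1 by 0.15 at 2 h, by 0.16 at 6 h and by 0.15 at 14 h on the log2 scale. The difference of cycle 2 minus cycle 1 was -0.19 at 10 h, -0.15 at 18 h and -0.14 at 22 h. So 3 of 6 clock times were higher on the later day and 3 lower, and the median size of the change was 0.15. Each of these changes is between single pools, so its size cannot be set against the dark-light difference, which is between means. On average cycle 2 was 6.98 ± 0.10 and cycle 1 was 6.98 ± 0.14 (SD, n = 6 each), a fold of 0.998 with a 95% interval of 0.890 to 1.12 (limma, adjusted p = 1). No entry passed the test between cycles (0 of 139, 0%), and 5 had an unadjusted p under 0.05 (3.6%).

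Across the 6 clock times the later day's values of miR-378 correlated with the earlier day's at Pearson's r = 0.06 (exact permutation over 720 pairings, 2-sided p = 0.944, adjusted p = 1) and Spearman's rho = -0.03 (exact p = 1, adjusted p = 1). Without the clock times 14 h and 6 h, the farthest from the median of the first day, r was -0.13. This was 1 of 2 relations tested, the other being that between the arms. The adjustment runs over the Pearson and Spearman p-values of both relations together.

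The spread of miR-378 over arrays was close to the middle of what the array showed. Its SD over the 12 arrays was 0.12 on the log2 scale, against a median of 0.10 over the 109 entries never at the floor, 45 of which had a larger SD and 63 a smaller one. Among these, 32 entries lay within 1 log2 unit of miR-378 in mean signal, and their median deviation from their own means ran from -0.08 to 0.07 over the arrays. It followed miR-378 with r = 0.741 over 12 arrays, a description, since all values of an array share labelling and scaling. With that shared deviation taken off each array, the SD of miR-378 was 0.09.

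The entries most like miR-378 over the 12 arrays were miR-28 (r = 0.829), miR-30a* (0.802), miR-148b (0.796), miR-101a (0.783) and miR-140 (0.743), by Pearson's r of log2 values among 108 other entries never at the floor. miR-28 lies within Lpp, miR-148b within Copz1 and miR-140 within Wwp2. Over the 8 arrays of slide 1 these r were 0.810 for miR-28, 0.781 for miR-30a*, 0.911 for miR-148b, 0.834 for miR-101a and 0.748 for miR-140. The least like were miR-146a (r = -0.37), miR-16 (-0.33) and miR-342-3p (-0.23), and within slide 1 their r were -0.47 for miR-146a, -0.73 for miR-16 and -0.57 for miR-342-3p. Of these least like entries, miR-16 and miR-342-3p are also on the list of miRNAs within host genes described below. The median r over the 108 was 0.333 and 93 were positive, with 34 above 0.5 and 0 below -0.5, so most of these entries correlated positively with miR-378 over the arrays. All these r rest on shared arrays and carry no p.

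**Figure D3:**
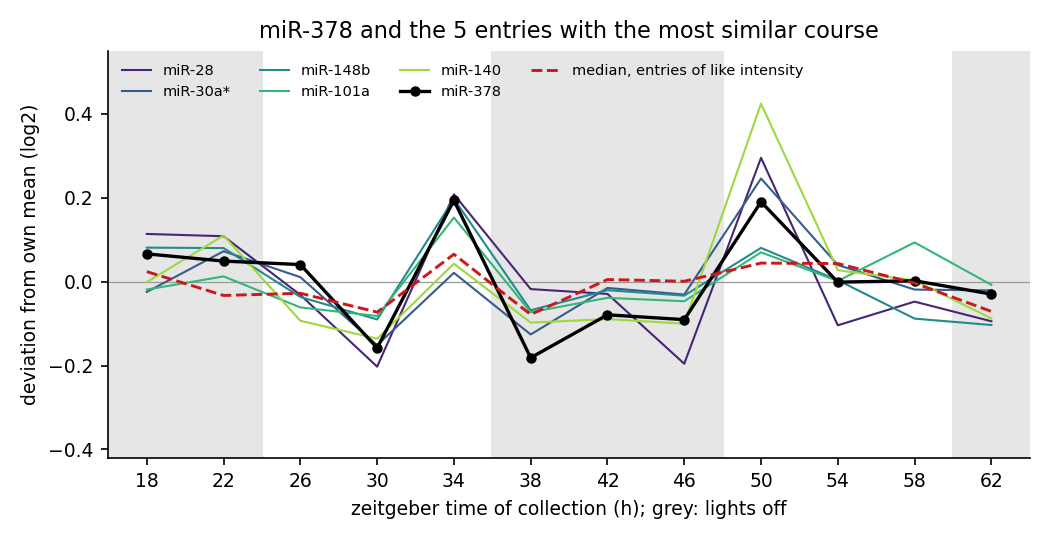
Deviation of log2 signal from each entry's mean against zeitgeber time in hours, for miR-378 and the 5 entries most like it over the 12 arrays. The dashed line is the median deviation of the 32 entries of like signal. The 5 most like entries lie above their means at ZT34 and ZT50 and below them at ZT38, as miR-378 does.

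miR-378* gave a weak signal close to the limit of detection in all pools. The scanner software called its entry detected on 8 arrays and not at ZT46, ZT50, ZT54 and ZT62. Only 17 of 114 used spots of its brighter probe and 2 of 113 of its dimmer probe were well above background, and on no array were most of the spots so (0 of 12). On all 12 arrays it lay below the detection floor of 22.2 units, a level set from the dimmest detected probe of each array. No fold change is therefore given for miR-378*, and its values are compared in intensity units before the floor.

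On the first day miR-378* gave 15.6 units at ZT18, 18.7 at ZT22, 18.8 at ZT26, 14.2 at ZT30, 20.1 at ZT34 and 13.9 at ZT38. On the second day it gave 16.4 units at ZT42, 15.8 at ZT46, 15.2 at ZT50, 12.5 at ZT54, 16.9 at ZT58 and 16.6 at ZT62. ZT34 was the highest array, as for miR-378, and ZT54 the lowest. The mean was 16.2 ± 2.19 units (SD, n = 12). The 4 arrays called undetected ran from 12.5 to 16.6 units and the 8 called detected from 13.9 to 20.1, so the calls did not separate the signals.

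The signal of miR-378* stood above several measures of background. The median of the negative controls ran from 0.735 to 2.66 units over the arrays and lay below both probes on 12 of 12 arrays. A stricter measure was the 95th percentile of 1267 probes of 427 entries detected on no array, which ran from 4.59 to 15.9 units. Both probes of miR-378* were above it on 11 of 12 arrays. The exception was ZT50, where that percentile was at its highest, 15.9 units.

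**Figure D4:**
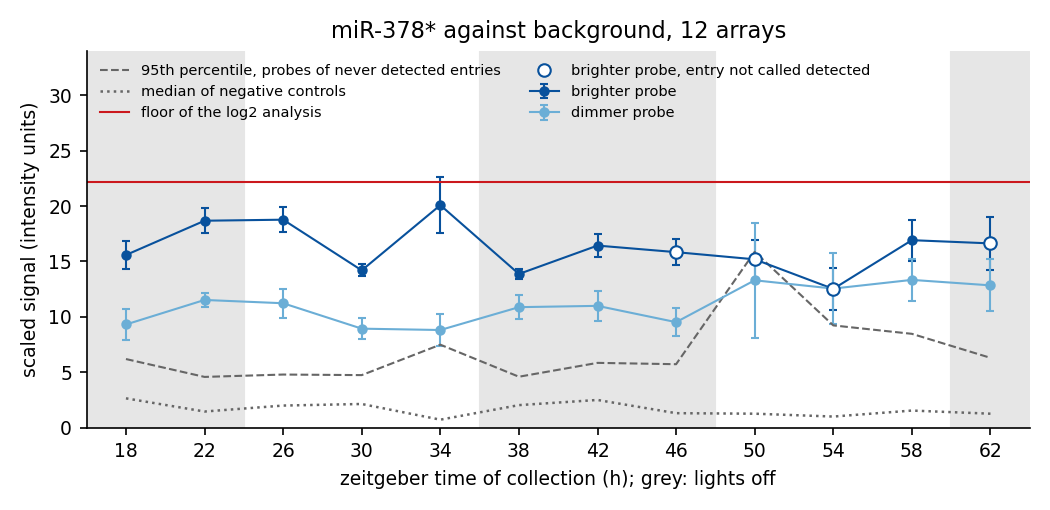
Scaled signal of miR-378* in intensity units on each array against zeitgeber time in hours for both probes, with bars for the standard error over spots, beside the 95th percentile of probes of never detected entries (dashed), the median of the negative controls (dotted) and the floor of 22.2 units (open circles, entry not called detected; grey, lights off). Both probes lie below the floor on all 12 arrays and above the percentile on 11.

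The 2 probes of miR-378* did not rank the arrays alike. The dimmer probe gave 9.32 units at ZT18, 11.5 at ZT22, 11.2 at ZT26, 8.94 at ZT30, 8.82 at ZT34, 10.9 at ZT38, 10.998 at ZT42, 9.53 at ZT46, 13.3 at ZT50, 12.6 at ZT54, 13.3 at ZT58 and 12.8 at ZT62. ZT34, the highest array by the brighter probe, was the lowest by this one. The correlation between the probes was r = -0.15 over 12 arrays and 0.151 within the 8 arrays of slide 1, and slide 2 holds too few arrays (4) for one. By the dimmer probe the arrays of slide 2 averaged 13.0 ± 0.378 units (SD, n = 4) and those of slide 1 averaged 10.2 ± 1.11 units (SD, n = 8), and the slides did not overlap. By the brighter probe the means were 15.3 units on slide 2 and 16.7 on slide 1, with overlap. miR-378* was called detected on 1 of 4 arrays of slide 2 and on 7 of 8 of slide 1. The standard error over spots of the brighter probe was 10.96% to 15.3% on slide 2 and 3.22% to 12.7% on slide 1. The part of slide and spot noise in the calls was not tested.

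Neither dark and light nor the 24-h cycle separated the values of miR-378*. The 6 dark pools ran from 13.9 to 18.7 units with a mean of 16.2 ± 1.57 (SD, n = 6), and the 6 light pools from 12.5 to 20.1 units with a mean of 16.3 ± 2.85 (SD, n = 6). The light pools thus held both the lowest and the highest array, and 3 of 6 dark pools lay below the light mean. The difference, dark minus light, was -0.109 units (exact permutation test over 924 splits, 2-sided p = 0.931). The fitted 24-h curve had a peak-to-trough difference of 0.823 units (permutation of time labels, 100000 draws, p = 0.915).

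The arms were then set against each other array by array, since 1 precursor gives rise to both. Over the 12 arrays Pearson's r between their scaled signals was 0.513 (100000 permutations, 2-sided p = 0.0892, adjusted p = 0.197) and Spearman's rho was 0.503 (permutation p = 0.0985, adjusted p = 0.197). Without ZT34 and ZT50, the arrays farthest from the median of miR-378, r was 0.533. The relation did not pass the threshold over all arrays. Within the 8 arrays of slide 1, r by the brighter probes was 0.865 (exact permutation p = 0.00662, not adjusted). Slide 2 holds too few arrays (4) for a correlation, and a difference between slides was not tested. Leaving out ZT50 alone gave r = 0.700 (permutation p = 0.0165, not adjusted) and leaving out ZT34 alone gave r = 0.311 (permutation p = 0.355, not adjusted). With the dimmer probe of miR-378* in place of the brighter one, r with miR-378 over the 12 arrays was 0.153.

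On slide 1 the arms shared their extremes by their brighter probes only. ZT34 was highest for both, at 144.7 units of miR-378 and 20.1 of miR-378*, and ZT38 lowest for both, at 111.5 and 13.9 units. By the dimmer probe of miR-378*, ZT34 was instead the lowest array, at 8.82 units, and ZT38 gave 10.9 units. On slide 2 the brighter probes did not share extremes. ZT50 was the highest of its 4 arrays for miR-378, with 144.3 units, and the second lowest for miR-378*, with 15.2 units. ZT62 was the lowest of them for miR-378, with 123.9 units, and the second highest for miR-378*, with 16.6 units. With the median deviation of the 32 entries of like signal taken off both arms, r was 0.507 over 12 arrays and 0.833 over slide 1.

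**Figure D5:**
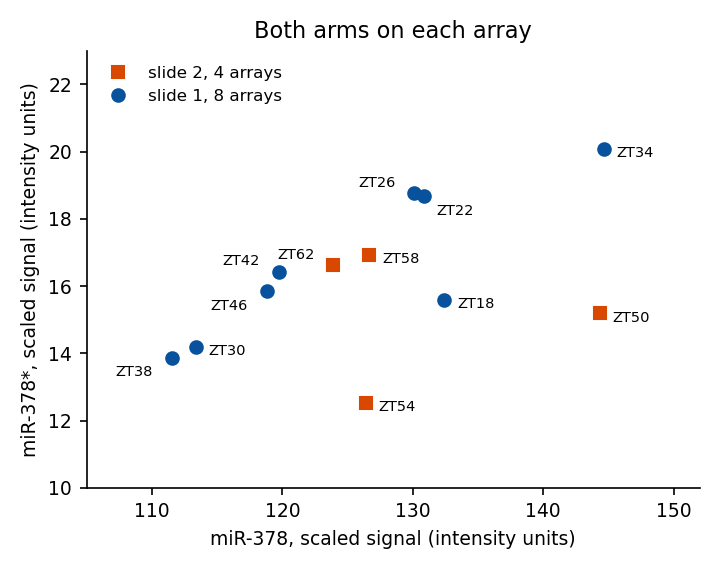
Scaled signal of miR-378* against that of miR-378, both by the brighter probe in intensity units, with a point for each array labelled by its zeitgeber time and marked by slide. The 8 arrays of slide 1 lie along a rising band (r = 0.865), and ZT50 and ZT54 of slide 2 lie below it.

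Other hairpins with a star entry and a partner of the same name, both above the floor on every array, gave a setting for that correlation. Arms named -3p and -5p were not compared, though miR-126-3p with miR-126-5p and miR-199a-3p with miR-199a-5p also stayed above the floor. The compared hairpins were thus only those named with a star. There were 4 of them: miR-140 with miR-140* (r = 0.407), miR-22 with miR-22* (0.05), miR-30a with miR-30a* (0.07) and miR-30e with miR-30e* (-0.09), a median of 0.06 over the 12 arrays. Among 104 star entries with a partner on the array, 7 were detected on at least 6 arrays, against 42 of the partners. Of the 7 detected star entries, miR-378* and miR-31* were the 2 that lay at the floor on all 12 arrays.

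Other miRNAs with roles in metabolism, and other miRNAs within host genes, gave no call by time of day in these pools, like all 139 tested entries. Of 20 listed metabolic miRNAs, 16 were tested and none passed the 24-h or the dark-light test in either direction (0 of 16 by limma, and 1 and 0 at an unadjusted p under 0.05). Their median 24-h fold was 1.06 and their median log2 difference, dark minus light, was -0.01, against 1.08 and -0.02 over all 139. Of those 139, 0 passed either test by limma, and 5 (3.6%) and 11 (7.91%) had an unadjusted p under 0.05. miR-143, a miRNA of smooth muscle and stromal cells, had a fold of 1.34 (limma, adjusted p = 0.849). miR-21, abundant in liver, had a fold of 1.12 and a dark minus light difference of -0.09 (limma, adjusted p = 0.957 and 0.740). miR-29c, which targets collagen messengers, had a dark minus light difference of -0.05 (limma, adjusted p = 0.602).

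Of 37 listed miRNAs within protein-coding host genes, 27 were tested and none passed either test (0 of 27 by limma, and 1 in each test at an unadjusted p under 0.05). The median 24-h fold of these miRNAs was 1.04 and their median log2 difference, dark minus light, was -0.01. The shares over all 139 tested entries were 0% in both tests by limma, and 3.6% and 7.91% at an unadjusted p under 0.05. miR-338-3p, within Aatk, had a 24-h fold of 1.19 and a dark minus light difference of 0.17 (limma, adjusted p = 0.849 and 0.440). miR-26a had a 24-h fold of 1.06 (limma, adjusted p = 0.957), and miR-25, within Mcm7, a dark minus light difference of -0.07 (limma, adjusted p = 0.740). The messenger of Ppargc1b was not measured here, so the host gene's own course over the day is not known.

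Lists of other cell types moved little with light in the same pools. The median log2 difference, dark minus light, was -0.03 for 6 tested liver entries, -0.08 for 3 leukocyte entries, 0.09 for 3 mesenchymal entries, 0.01 for 2 red cell entries and -0.01 for 2 endothelial entries. Both brown fat entries were lower in the dark, with a median of -0.08, as were 92 of all 139 tested entries. By limma 0 of these lists' entries passed the test (1 liver and 1 brown fat entry had an unadjusted p under 0.05). Over all 139 entries 0 passed, and 11 (7.91%) had an unadjusted p under 0.05. Whether any of these cells takes part in the values of miR-378 was not tested.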

How the data were processed

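Total RNA of 12 mouse liver pools was measured on one-colour (Cy3) Agilent miRNA arrays. The deposited values are spot intensities, background-subtracted and detrended by Agilent Feature Extraction, version 10.7.3.1 per the file headers and 9.5.3.1 per the submitters' processing notes. The deposited series matrix holds the same intensity values (each spot differing by 0). A genome build is not given in the sources used here.

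Control spots and spots that the software marked as outliers (3.82% to 6.94%) were left out, and 0 spots of the members were saturated. Spots of a probe were averaged. Each array was divided by the 75th percentile of the 157 probes with a call on every array (more than 50% of spots well above background), with factors of 0.910 to 1.16, then floored at 22.2 units and put on log2. An entry was represented by its brightest probe on average. Tests on the 139 entries with calls on 6 arrays or more used limma 3.58.1 (R 4.3.3, package data.table, version 1.17.8) with an intensity trend, adjusted by Benjamini-Hochberg at 0.05. The rhythm was an F test of sine and cosine terms with a 24 h period, and the fits were tested on simulated data. The number of arrays limits the precision.

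Groups came from the ZT in the titles. Both members are named, with the 5 entries most and the 3 least like miR-378, and, of the metabolic and host-gene lists, the 2 tested members with the smallest unadjusted p in the 24-h and in the dark minus light tests. Members and lists were chosen with earlier results of these data known. Alternatives varied scaling, background correction, floor, probe, filter, slide, cycle and single arrays. The normexp correction was run on median spot signals, as the files used here hold no mean signals. The sequences of the arms are not reported here.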

Additional observations from a re-analysis of the deposited data

Results flagged for a closer look

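At ZT50, miR-378 gave 144.3 units by its brighter probe, far from the other 5 arrays of cycle 2, which ran from 118.8 to 126.7 units. On the log2 scale, the gap from ZT50 to the nearest of them was 0.670 of the range of the 6 arrays of cycle 2, above the critical value of 0.625. In all, 16 groups of the arms' values were examined and 1 stood out in this way, and chance gives about 1 in 20. The dimmer probe gave 78.2 units at ZT50, which did not stand apart. ZT50 also had the largest standard error over spots of the brighter probe, 4.06%, and the highest 95th percentile of probes never detected, 15.9 units. Their part in the value was not tested.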

How the results depend on the processing

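miR-378 was not called in any alternative of any comparison. Its dark minus light difference turned to 0.34 under scaling on all probes and otherwise ran down to -0.33 (normexp). It lay between -0.13 and -0.06 when single arrays were left out. Its cycle difference, near 0, took the other sign under normexp (0.26) and with marked spots kept (0.0610). With scaling on all probes that difference was -0.54, and on slide 1 alone or with slide as a block it was -0.14. The last 2 settings rest only on the pairs at 18 h (-0.15) and 22 h (-0.14), which have both cycles on slide 1. Without single arrays the cycle difference ran from -0.0350 to 0.0347. The correlation between days was -0.11 with scaling on all probes, -0.66 with no scaling, -0.11 with quantile normalization and -0.00484 with scaling on entries of like intensity, the last chosen after seeing the data, and between 0.202 and 0.461 (dimmer probe) in the other 5. The dark minus light difference of miR-378* was 3.66 units with scaling on all probes, 0.658 with no scaling, 2.38 with quantile normalization and 0.274 with scaling on entries of like intensity, and in the other direction -13.9 with marked spots kept, -1.60 on slide 1 alone and -1.35 on the arrays with miR-378* detected. It ran from -0.859 to 0.651 without single arrays.

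The correlation of the arms passed the threshold with scaling on all probes (0.966), no scaling (0.581), quantile normalization (0.678) and the spot median (0.587). It also passed on slide 1 alone (0.865) and with the dimmer probe of miR-378 (0.612). When single arrays were left out it ran from 0.311 (without ZT34) to 0.700 (without ZT50). It was 0.08 with the software's total gene signal and 0.08 with marked spots kept. Scaling on all probes and no scaling cannot decide whether the arms vary together. Scaling on all probes divides both arms by the same factor, which rests on weak signal. Only 16.5% to 19.6% of an array's spots were well above background. No scaling leaves differences in brightness between arrays in both arms. Over the array, normexp called 1 entry in the 24-h test and 1 over clock times, where slide 1 alone called 3. Leaving out single arrays called 0 to 8 entries over clock times (8 without ZT26, 2 without ZT46) and 0 to 2 between dark and light (2 without ZT30). The cause of these changes was not tested. The 24-h fold of miR-378 stayed between 1.01 and 1.41, and its span over clock times between 1.09 and 1.90. A fit of all entries of the array with the intensity trend could not be fitted and was run without the trend. With cycle as a block the dark minus light difference of miR-378 was -0.09 (limma, adjusted p = 0.769). This block cannot change the difference, since each cycle holds 3 dark and 3 light arrays. Dark and light pools could not be paired, because the labels carry no replicate numbers that pair pools of different clock times. Pools of the same clock time were compared between cycles. Weak signal over background limits what can be said of miR-378*.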

Other observations

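Spots marked as outliers by the software were few for either arm, but some were far from the other spots of their probe. For miR-378 they were 10 of 240 spots, 6 of them on slide 2, and the highest, at ZT50, gave 531.2 units beside a mean of 144.3 over the other spots of that probe. For miR-378* they were 13 of 240 spots, 11 of them above the mean of their probe. The highest of these, at ZT26, gave 950.7 units beside a mean of 11.2 over the other spots of the dimmer probe. A single such spot kept in the mean would exceed the whole range of miR-378* over the arrays.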
